A study of Mus musculus with 6 samples.

Results

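The genes described here are 10 genes that astrocytes are known for: Gfap, Apoe, Clu, Aldoc, Aqp4, Slc1a2, Slc1a3, S100b, Gja1 and Agt. They were chosen by symbol, for their roles in astrocyte structure, lipid transport and glutamate uptake. Each has 1 row in a table of 35274 genes and 6 libraries. All 10 passed a filter that kept 14518 genes averaging 1 TPM or more (transcripts per 1000000, an abundance corrected for transcript length).

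Dentate neuroepithelium, the embryonic ventricular zone that gives rise to the dentate gyrus, was dissected from mice whose label is embryonic day 14. Of the 6 libraries, 2 were homozygous for a floxed Sox11 allele (SOX11f/f, called homodeficient in the labels). Another 2 were heterozygous (SOX11f/+, called haplodeficient), and 2 were wild type (WT, called control). A floxed allele is cut out only where Cre recombinase acts, and the Cre driver is not given in the sources used here. Sox11 encodes a transcription factor of newborn neurons. The labels do not state whether the replicates were separate embryos or litters, so errors and p-values cover only how far these libraries differ, possibly for technical reasons.

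Astrocytes arise from radial glia, the progenitors that line the ventricle, and in mice most form around birth, after the main wave of neurons. They take glutamate back up from synapses, hand lipids to neurons on lipoprotein particles, move water and potassium through their endfeet on vessels, and join one another by gap junctions. Gfap is classically a marker of mature or reactive astrocytes and of adult neural stem cells in the dentate gyrus. Slc1a3 and Clu are already on in radial glia, and some of the 10 genes are shared with other cells: Apoe with microglia, Clu with choroid plexus and ependyma, S100b with oligodendrocyte lineage cells. In bulk tissue, more cells of a type and more RNA per cell cannot be told apart.

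Sox11, the check of the labels, stood at 5.23 and 5.06 TPM in homozygous, 56.1 and 50.1 TPM in heterozygous and 192 and 130.2 TPM in wild type libraries. Between 18722 and 19408 genes per library were above 0 TPM, and read depth is unknown because TPM keeps none. The labelled tissue was checked against 19 genes of the dentate neuroepithelium, of which 18 were measured above the filter. Prox1, the granule cell determinant, stood at 76.5 and 74.1 TPM in homozygous, 54.3 and 82.01 TPM in heterozygous and 175 and 110.5 TPM in wild type libraries, while Wnt3a reached at most 1.45 TPM in any library. Heterozygous replicate 1 and homozygous replicate 1 stand apart: Ttr, which encodes the transthyretin that choroid plexus secretes, was at 6421 and 184 TPM in homozygous, 11259 and 4.44 TPM in heterozygous and 3.07 and 2.04 TPM in wild type libraries. For the 10 genes, log2 differences without these libraries are given in part only, and other gene lists are given with all libraries only. A value that is not given may still have moved. Gfap, classically a late gene, averaged 363 TPM, 18 genes of mature neurons summed to between 2006 and 3784 TPM, and the embryonic globins Hbb-y, Hba-x and Hbb-bh1 had at most 0.16 TPM. The labelled stage and dissection could not be settled from the files, so the levels below are those of libraries so labelled.

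All 10 genes were present in every library. Averaged over the 6 libraries, Apoe stood highest at 1667 TPM, above 99.6% of the genes tested. Gfap at 363 TPM, Slc1a3 at 293 TPM, Aldoc at 276 TPM and Clu at 217 TPM followed. Below them lay Slc1a2 at 117 TPM, Gja1 at 74.3 TPM and Aqp4 at 53.8 TPM, and last Agt at 11.99 TPM and S100b at 6.34 TPM. Neighbours in this order were not always separated: Slc1a3 and Aldoc overlapped in homozygous and in heterozygous libraries. Clu lay below Slc1a2 in both wild type libraries and above it in the other 4. Between libraries, S100b varied most, 5.25-fold from lowest to highest, and Clu 4.74-fold, while Slc1a3 varied 1.20-fold.

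**Figure D1:**
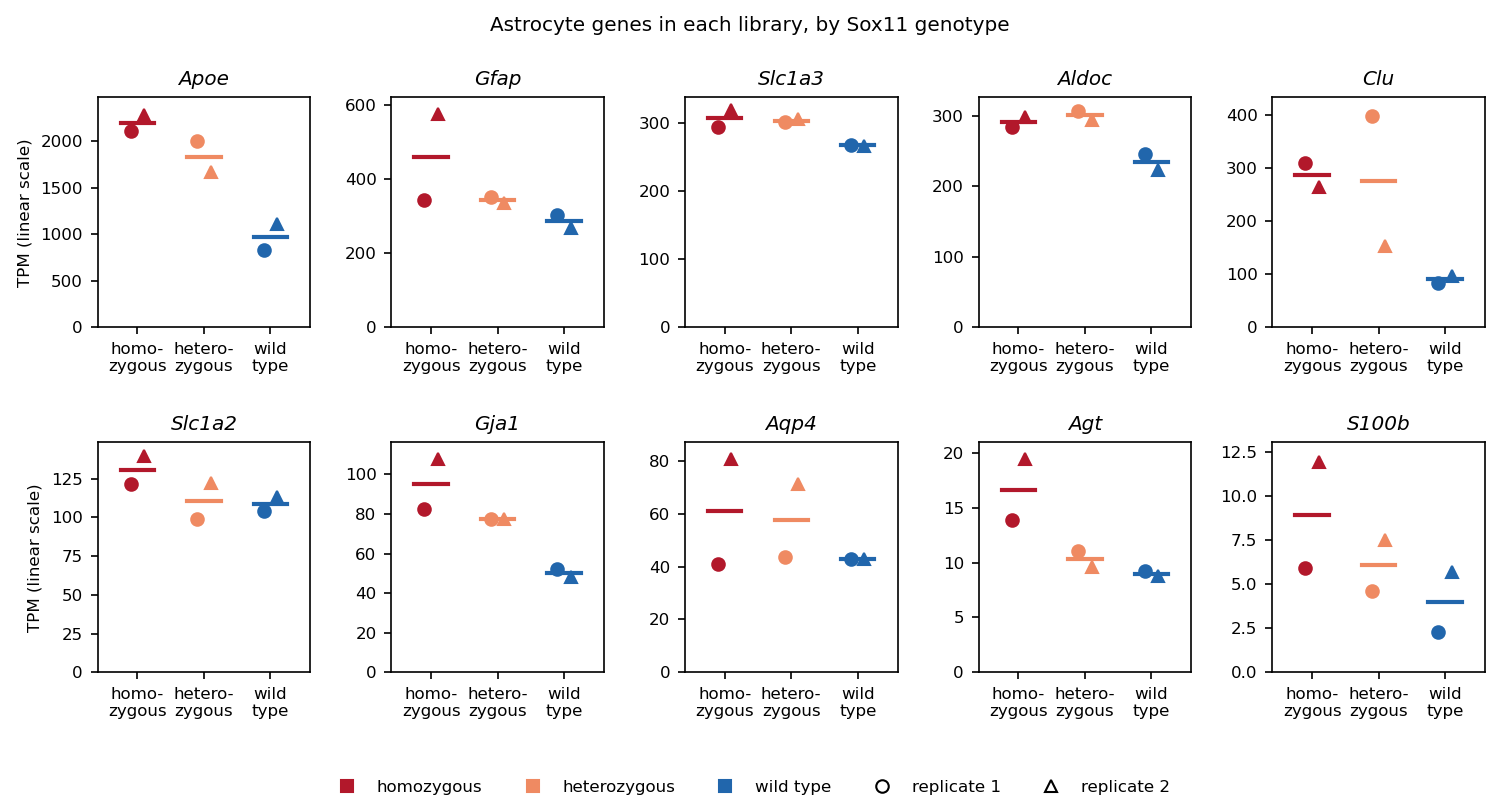
TPM of each of the 10 genes in every library (vertical axis from 0, linear), by genotype; circles are replicate 1, triangles replicate 2 and bars the mean of 2 libraries. Apoe, Gja1, Clu, Gfap, Aldoc, Agt and Slc1a3 are higher in all 4 libraries with a floxed allele than in both wild type libraries. Slc1a3 is so by small amounts, at 267 to 319 TPM over all libraries, and Agt is so by a small margin in heterozygous replicate 2 (9.57 TPM). For Gfap and Aqp4 the highest point is homozygous replicate 2.

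Homozygous tissue was compared with wild type to ask which of these transcripts differ when both Sox11 alleles carry the floxed site. All 10 means were higher in homozygous libraries, from 1.15 times for Slc1a3 to 3.17 times for Clu, and the median log2 difference of the 10 was 0.72, beside -0.04 over all genes tested. For 9 of the 10, both homozygous libraries were above both wild type ones, where 23.6% of all genes tested behaved so. Aqp4 was the exception, and the margin of S100b was small (lowest homozygous 5.94 TPM, highest wild type 5.69 TPM). An unadjusted limma p under 0.05 with a higher level was found for 6 of the 10, Gfap, Apoe, Clu, Aldoc, Gja1 and Agt, and for 8.35% of genes tested.

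None of the 10 passed limma's test across all genes, where 6 genes or 0.0413% of those tested were called at an adjusted p of 0.05. The lowest limma adjusted p was 0.061 for Apoe, then 0.068 for Gja1. The calls of Apoe, Gja1 and Clu depended on the settings. At a pseudocount of 0.1, limma adjusted p was 0.035 for Apoe and 0.045 for Gja1. With no filter on low values it was 0.17 for Apoe, 0.23 for Clu and 0.17 for Gja1. Without the heterozygous libraries all 3 passed (limma adjusted p = 0.016 for Apoe, 0.0026 for Clu and 0.034 for Gja1). Without the 2 libraries with the most Ttr, Gfap (limma adjusted p = 0.0050, range 0.0050 to 0.56) and Aqp4 (0.026, range 0.026 to 0.94) passed as well, each on homozygous replicate 2 alone. Leaving out homozygous replicate 2 instead lowered the median of the 10 to 0.42, and leaving out homozygous replicate 1 raised it to 1.02.

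Heterozygous tissue was compared with wild type to ask the same of 1 floxed allele. All 10 means were again above wild type, from 1.02 times for Slc1a2 to 3.05 times for Clu, with a median log2 difference of 0.36 beside -0.06 over all genes tested. Libraries did not overlap for 8 of the 10, all higher in heterozygous tissue, against 17.1% of genes tested. The margin was small for Aqp4 (lowest heterozygous 43.8 TPM, highest wild type 43.0 TPM) and Agt (9.57 and 9.21 TPM). The exceptions were Slc1a2 and S100b. Apoe, Clu, Aldoc and Gja1, 4 of the 10, were higher with an unadjusted limma p under 0.05, against 6.42% of genes tested.

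None of the 10 passed across all genes in heterozygous tissue, where 5 genes or 0.0344% were called. The lowest limma adjusted p was 0.157, for Apoe. Without heterozygous replicate 2, Apoe (limma adjusted p = 0.044, range over alternatives 0.044 to 0.78) and Clu (0.0022, range 0.0022 to 0.78) passed, both resting on the library with the most Ttr. Both comparisons use the same wild type libraries, so their directions are not independent of each other.

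Homozygous and heterozygous tissue were then set against each other. On the log scale 9 of the 10 means lay higher in homozygous libraries and that of Aldoc lay lower, at -0.05, with a median of 0.25 beside 0.01 over all genes. Libraries did not overlap for 3 of the 10, Apoe, Gja1 and Agt, against 15.3% of genes tested. Agt was the only one of the 10 that was higher with an unadjusted limma p under 0.05, against 1.14% of genes tested. None passed across all genes (limma adjusted p = 0.9999 for each), where 2 genes or 0.0138% were called.

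**Figure D2:**
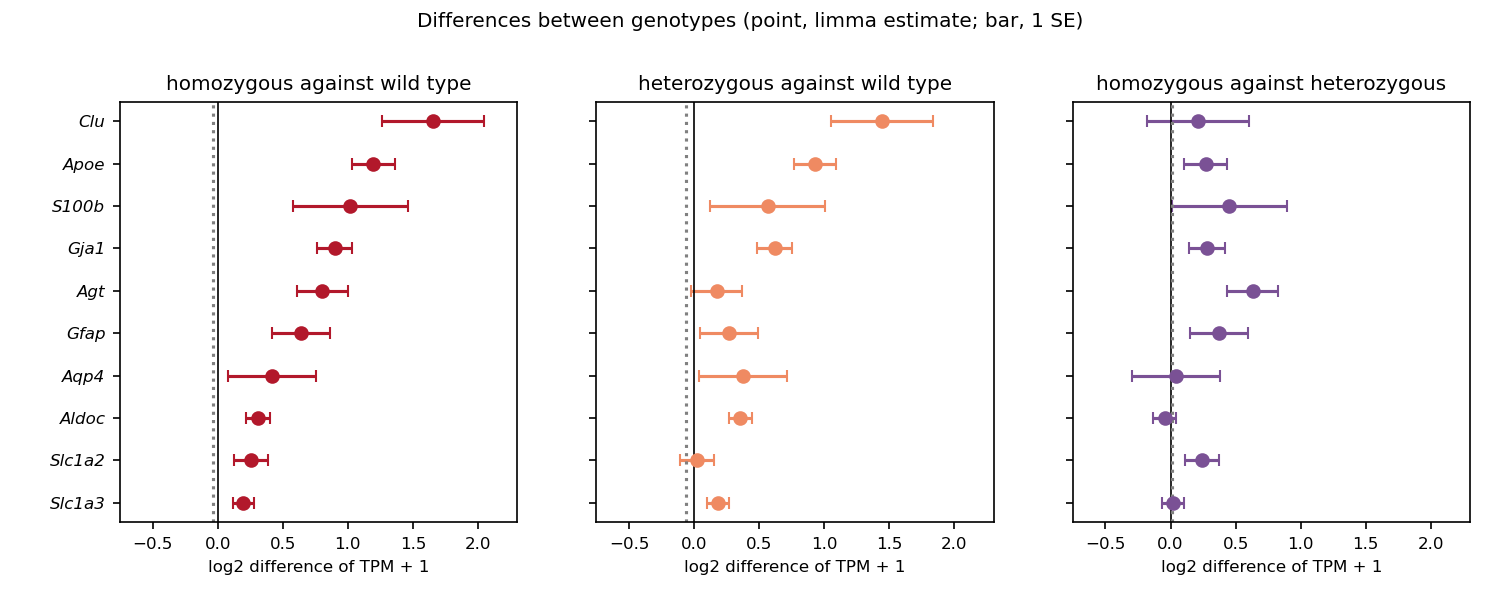
Log2 difference of TPM + 1 for each of the 10 genes in the 3 comparisons, as limma estimates with bars of 1 SE; the solid line marks 0 and the dotted line the median of all genes tested. Clu and Apoe lie farthest right in both comparisons with wild type, at 1.65 and 1.20 in homozygous tissue, and Slc1a3 and Slc1a2 lie nearest to 0 in homozygous against wild type.

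Promoter sequences were available for 8 of the 10 genes, as 11 windows of 300 bases that run from 250 bases before to 50 after a RefSeq transcript start (GRCm38.p6). They were read for letters that factors of the astrocyte programme and of the Sox family are known to bind, because most of the 10 genes lay on the same side of wild type. STAT proteins, which pass on the cytokine signal that turns on Gfap, bind the site TTCCNGGAA. It was found in 3 of the 11 windows, those of Gfap, of Agt and of the second Aldoc start, and in 1.15% of 32851 windows of the genome. Its looser core TTCNNNGAA, which includes the first site, was found in 4 windows, with Slc1a3 as the fourth, and in 8.30% of all windows. The Sox core ACAAAG was found in 1 window, that of the first Apoe start, and in 18.7% of all windows. The Sox core AACAAT (10.7% of all windows) and the NFI palindrome (0.0365%) had no match in the 11 windows on either strand. A match is a description of letters, not a site shown to be used.

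Windows are printed for the gene with the match nearest to its start, for the other match to the strict site at a first start, for the window with the looser core alone and for the window with a Sox core. They read from 5′ to 3′ on the gene's strand, capitals mark the matches, and position 0 is the transcript start.
Gfap, chr11:102897151-102897450, minus strand, match from -2 to 6: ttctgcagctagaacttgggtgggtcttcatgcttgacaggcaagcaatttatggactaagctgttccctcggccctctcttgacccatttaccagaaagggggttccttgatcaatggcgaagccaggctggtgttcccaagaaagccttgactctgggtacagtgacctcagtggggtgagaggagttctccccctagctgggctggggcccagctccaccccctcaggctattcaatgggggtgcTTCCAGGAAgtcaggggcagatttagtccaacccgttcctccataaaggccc
Agt, chr8:124569657-124569956, minus strand, match from -172 to -164: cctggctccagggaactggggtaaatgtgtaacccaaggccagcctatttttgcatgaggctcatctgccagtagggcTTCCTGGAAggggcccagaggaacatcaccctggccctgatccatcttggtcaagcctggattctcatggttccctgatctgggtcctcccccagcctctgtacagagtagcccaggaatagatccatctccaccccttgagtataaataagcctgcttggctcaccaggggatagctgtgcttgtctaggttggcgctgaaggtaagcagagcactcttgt
Slc1a3, chr15:8710758-8711057, minus strand, match from -96 to -88: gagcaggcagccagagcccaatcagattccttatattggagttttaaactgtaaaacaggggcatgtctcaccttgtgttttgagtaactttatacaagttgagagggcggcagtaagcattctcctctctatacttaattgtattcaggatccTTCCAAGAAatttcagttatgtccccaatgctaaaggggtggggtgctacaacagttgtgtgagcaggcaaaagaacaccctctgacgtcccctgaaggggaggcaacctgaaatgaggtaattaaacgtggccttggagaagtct
Apoe, chr7:19699139-19699438, minus strand, match from -54 to -49: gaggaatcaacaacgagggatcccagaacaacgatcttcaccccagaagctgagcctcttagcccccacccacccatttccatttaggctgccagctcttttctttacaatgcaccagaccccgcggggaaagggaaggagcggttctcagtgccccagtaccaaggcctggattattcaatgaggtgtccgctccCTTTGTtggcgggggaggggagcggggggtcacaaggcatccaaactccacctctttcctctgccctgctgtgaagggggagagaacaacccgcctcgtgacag

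Among structural genes, Gfap (ENSMUSG00000020932.14, chromosome 11 from 102887336 to 102900912 on GRCm38, minus strand, 9 exons) encodes the intermediate filament of astrocytes. Gfap stood at 345 and 576 TPM in homozygous, 352 and 335 TPM in heterozygous and 304 and 268 TPM in wild type libraries. Homozygous replicate 2 was highest, and the other 5 libraries lay between 268 and 352 TPM. Against wild type the log2 difference was 0.64 (SE 0.22, limma adjusted p = 0.21) in homozygous and 0.27 (SE 0.22, limma adjusted p = 0.60) in heterozygous libraries. In homozygous tissue it was 0.27 without homozygous replicate 2 and 1.01 without homozygous replicate 1, and in heterozygous tissue 0.18 without wild type replicate 2. In homozygous replicate 2 the mural and meningeal genes also stood apart, with a summed level of 822 TPM there and 208 TPM in homozygous replicate 1, beside 405 and 399.6 TPM in heterozygous and 507 and 258 TPM in wild type libraries. Their part in the Gfap value was not tested. Of 8 other intermediate filament genes, 7 were tested and 0 were called in either comparison with wild type. Vim, the filament of radial glia and reactive astrocytes, stood at 327 and 353 TPM in homozygous, 420 and 254 TPM in heterozygous and 360 and 240 TPM in wild type libraries, and its genotypes overlapped. Ina, a filament of young neurons, stood at 109 and 91.1 TPM in homozygous, 117 and 115 TPM in heterozygous and 161 and 159.8 TPM in wild type libraries, lower in all 4 floxed libraries. Within a library, Gfap over Vim was 1.055 and 1.63 in homozygous, 0.839 and 1.32 in heterozygous and 0.844 and 1.12 in wild type libraries, higher in replicate 2 of each genotype.

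S100b (ENSMUSG00000033208.7, chromosome 10 from 76253853 to 76261159, plus strand, 3 exons) encodes a small calcium-binding protein of mature astrocytes. It stood at 5.94 and 11.97 TPM in homozygous, 4.65 and 7.52 TPM in heterozygous and 2.28 and 5.69 TPM in wild type libraries. Replicate 2 was the higher one in each genotype, and the lower homozygous value was just above the higher wild type one. The log2 difference in homozygous tissue was 1.02 (SE 0.44, limma adjusted p = 0.29) and in heterozygous tissue 0.57 (SE 0.44, limma adjusted p = 0.57). Single libraries moved these values. In homozygous tissue the difference was 0.50 without wild type replicate 1, 1.53 without wild type replicate 2, 0.57 without homozygous replicate 2 and 1.47 without both libraries with the most Ttr. In heterozygous tissue it was 0.05 without wild type replicate 1, 1.08 without wild type replicate 2, 0.27 without heterozygous replicate 2 and 0.86 without heterozygous replicate 1. Dip2a, at 33.5 TPM on average, overlaps S100b on the opposite strand, and whether reads were counted by strand is not given in the sources used here, so the level of S100b is uncertain. Camk2a, a kinase of mature excitatory neurons, was split in the same way, at 266 and 496 TPM in homozygous, 138 and 343 TPM in heterozygous and 121 and 295 TPM in wild type libraries. Its part in the S100b values was not tested.

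Other S100 genes numbered 11, of which 9 were tested and 0 were called in either comparison with wild type. S100a1, a paralog, stood at 56.9 and 68.7 TPM in homozygous, 55.1 and 56.7 TPM in heterozygous and 27.3 and 34.2 TPM in wild type libraries, with no overlap between wild type and the others. S100a4 stood at 17.2 and 20.5 TPM in homozygous, 12.2 and 12.1 TPM in heterozygous and 9.10 and 8.23 TPM in wild type libraries, so that its genotypes were in the order of floxed alleles. The share of all genes tested in that order was not counted. S100a10, a partner of annexin A2, lay the other way in homozygous tissue, at 140.5 and 142 TPM, with 195 and 228 TPM in heterozygous and 183 and 265 TPM in wild type libraries. The median log2 difference of the 9 was 0.69 in homozygous and 0.36 in heterozygous tissue.

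The lipid carriers had the largest log2 differences from wild type of the 10 genes with a pseudocount of 1 and all libraries. In homozygous tissue S100b exceeded Apoe with a pseudocount of 0.1 (1.202 for S100b and 1.197 for Apoe). The gap was wider without homozygous replicate 1, alone or together with heterozygous replicate 1 (1.47 for S100b and 1.25 for Apoe). S100b also exceeded Apoe there without wild type replicate 2. In heterozygous tissue S100b exceeded both carriers without heterozygous replicate 1, alone or together with homozygous replicate 1 (0.86 for S100b, 0.80 for Apoe and 0.76 for Clu). Apoe (ENSMUSG00000002985.16, chromosome 7 from 19696109 to 19699188, minus strand, 4 exons), the main lipoprotein of brain cholesterol transport, stood at 2115 and 2285 TPM in homozygous, 2000.5 and 1666 TPM in heterozygous and 830.4 and 1107 TPM in wild type libraries. The genotypes did not overlap and stood in the order of floxed alleles. Between both floxed genotypes the log2 difference was 0.27 (SE 0.16, limma adjusted p = 0.9999). How many of all genes tested stood in such an order was not counted. The mean was 2.27 times wild type in homozygous tissue (log2 difference 1.20, SE 0.16, limma adjusted p = 0.061) and 1.89 times in heterozygous tissue (0.93, SE 0.16, limma adjusted p = 0.157). Without the 2 libraries with the most Ttr the log2 difference in homozygous tissue was 1.25. Csf1r, the survival receptor of microglia, was also lowest in wild type, at 32.9 and 33.5 TPM in homozygous, 33.5 and 25.2 TPM in heterozygous and 14.7 and 16.6 TPM in wild type libraries. Of 18 microglia genes all 18 were above wild type in both comparisons, where 44.8% in homozygous and 40.2% in heterozygous tissue of all genes were, with summed levels of 542 and 569 TPM in homozygous, 696 and 452 TPM in heterozygous and 286 and 343 TPM in wild type libraries. None was called by limma, and 12 in homozygous and 13 in heterozygous tissue were higher with an unadjusted p under 0.05, against 8.35% and 6.42% of all genes. The part of microglia in the Apoe level was not tested.

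Clu (ENSMUSG00000022037.15, chromosome 14 from 65968483 to 65981547, plus strand, 9 exons) encodes clusterin, a secreted chaperone and lipid carrier. It stood at 309 and 263 TPM in homozygous, 396 and 153 TPM in heterozygous and 83.7 and 96.6 TPM in wild type libraries. The lowest floxed library was still above both wild type ones, and the highest was the library with the most Ttr. The log2 difference was 1.65 (SE 0.39, limma adjusted p = 0.121) in homozygous and 1.44 (SE 0.39, limma adjusted p = 0.27) in heterozygous tissue. Without the 2 libraries with the most Ttr, which leaves a lone library in each floxed genotype, it was 1.54 in homozygous and 0.76 in heterozygous tissue. Foxj1, the regulator of motile cilia in ependyma and choroid plexus, stood at 90.0 and 56.7 TPM in homozygous, 131 and 26.4 TPM in heterozygous and 3.0 and 3.14 TPM in wild type libraries. This is the order of Clu in the floxed libraries, and the part of these cells in Clu was not tested.

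Choroid plexus genes numbered 18, of which 17 were tested, and all 17 were above wild type in both comparisons. Their summed levels were 6917 and 358 TPM in homozygous, 12052 and 72.6 TPM in heterozygous and 72.0 and 49.5 TPM in wild type libraries, so heterozygous replicate 2 was close to wild type, and 0 were called. Folr1, the folate receptor of choroid plexus, was at 0.40 and 0.20 TPM in wild type libraries and at 3.43 to 89.8 TPM in the other 4. Of 19 ependymal and motile cilia genes all 19 were tested and above wild type, with 2 called higher in each comparison with wild type, Ccdc153 and Tmem212. Their sums were 656 and 479 TPM in homozygous, 820 and 262 TPM in heterozygous and 58.0 and 44.3 TPM in wild type libraries.

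Genes that act with these carriers follow. Of 23 other lipid transport genes 22 were tested and 0 called in either comparison with wild type, with medians of 0.20 in homozygous and 0.02 in heterozygous tissue. Lrp8, a neuronal ApoE receptor, stood at 93.8 and 94.8 TPM in homozygous, 105.5 and 97.6 TPM in heterozygous and 154 and 128 TPM in wild type libraries, lower in all 4 floxed libraries. Pltp, a phospholipid transfer protein, stood at 94.4 and 81.8 TPM in homozygous, 125 and 43.2 TPM in heterozygous and 34.2 and 18.7 TPM in wild type libraries, higher in all 4. Abca1, which loads lipid onto ApoE, stood at 24.1 and 29.8 TPM in homozygous, 29.8 and 25.7 TPM in heterozygous and 29.4 and 23.4 TPM in wild type libraries, and its genotypes overlapped.

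With a pseudocount of 1 and all libraries, the glutamate transporters had the smallest log2 differences from wild type of the 10 in homozygous tissue. In heterozygous tissue Agt (0.17) lay between Slc1a2 (0.02) and Slc1a3 (0.18). The order in homozygous tissue depended on the libraries. Aqp4 was nearest to 0 without homozygous replicate 2 (-0.07). Aldoc lay below Slc1a2 without wild type replicate 2 (0.24 and 0.32). It also did so without homozygous replicate 1, alone or together with heterozygous replicate 1 (0.345 and 0.358). Slc1a3 (ENSMUSG00000005360.14, chromosome 15 from 8634124 to 8710764, minus strand, 10 exons) encodes GLAST, the transporter that radial glia and young astrocytes use. It stood at 295 and 319 TPM in homozygous, 301 and 306 TPM in heterozygous and 268 and 267 TPM in wild type libraries. All 4 floxed libraries were above wild type, by small amounts: the log2 difference was 0.20 (SE 0.08, limma adjusted p = 0.28) in homozygous and 0.18 (SE 0.08, limma adjusted p = 0.38) in heterozygous tissue. Slc1a2 (ENSMUSG00000005089.15, chromosome 2 from 102658659 to 102790784, plus strand, 11 exons) encodes GLT-1, the main transporter of mature astrocytes. It stood at 121 and 139 TPM in homozygous, 99.3 and 122 TPM in heterozygous and 104 and 113 TPM in wild type libraries. Heterozygous and wild type libraries overlapped, and homozygous ones lay above wild type by 0.26 (SE 0.13, limma adjusted p = 0.34), or by 0.16 without homozygous replicate 2.

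Slc1a2 over Slc1a3 within a library was 0.411 and 0.437 in homozygous, 0.3297 and 0.399 in heterozygous and 0.390 and 0.423 in wild type libraries, so GLAST was the higher of the pair in every library. Of 17 other genes of glutamate transport and metabolism, 16 were tested and 0 called in either comparison with wild type, with medians of 0.05 in homozygous and -0.01 in heterozygous tissue. Glul, the glutamine synthetase of astrocytes, stood at 246 and 265 TPM in homozygous, 324 and 252 TPM in heterozygous and 188 and 194 TPM in wild type libraries, with every floxed library higher. Slc1a7, a transporter known from retina, reached at most 0.26 TPM.

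Aldoc (ENSMUSG00000017390.15, chromosome 11 from 78322968 to 78327781, plus strand, 9 exons) encodes aldolase C, the glycolytic isozyme of astrocytes and some neurons. It stood at 284 and 299 TPM in homozygous, 307 and 294 TPM in heterozygous and 246 and 224 TPM in wild type libraries. All 4 floxed libraries were above wild type and the 2 floxed genotypes overlapped. The log2 difference was 0.31 (SE 0.09, limma adjusted p = 0.165) in homozygous and 0.35 (SE 0.09, limma adjusted p = 0.25) in heterozygous tissue. Aldoa, the aldolase of most tissues, was higher than Aldoc in every library, with Aldoc over Aldoa at 0.605 and 0.547 in homozygous, 0.768 and 0.654 in heterozygous and 0.740 and 0.576 in wild type libraries. Of 16 aldolase and glycolysis genes, 15 were tested and 0 called in either comparison with wild type, with medians of 0.23 in homozygous and 0.09 in heterozygous tissue.

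Among genes of endfeet and coupling, Gja1 (ENSMUSG00000050953.10, chromosome 10 from 56377330 to 56402513, plus strand, 2 exons) encodes connexin 43, the gap junction protein of astrocytes and radial glia. It stood at 82.7 and 108 TPM in homozygous, 77.4 and 77.6 TPM in heterozygous and 52.1 and 48.3 TPM in wild type libraries. The 3 genotypes did not overlap and stood in the order of floxed alleles, an order that was not counted over all genes. Between both floxed genotypes the log2 difference was 0.28 (SE 0.14, limma adjusted p = 0.9999). The mean was 1.90 times wild type in homozygous tissue (log2 difference 0.90, SE 0.14, limma adjusted p = 0.068) and 1.54 times in heterozygous tissue (0.62, SE 0.14, limma adjusted p = 0.22). Without the 2 libraries with the most Ttr the log2 difference in homozygous tissue was 1.09. Of 12 other connexin and pannexin genes, 9 were tested and 0 called in either comparison with wild type. Gjc1, a connexin of young neurons and vessels, stood at 16.97 and 17.4 TPM in homozygous, 23.2 and 21.8 TPM in heterozygous and 30.01 and 22.7 TPM in wild type libraries, lowest in homozygous ones.

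Aqp4 (ENSMUSG00000024411.9, chromosome 18 from 15389496 to 15410982, minus strand, 5 exons) encodes the water channel of astrocyte endfeet. It stood at 40.8 and 80.9 TPM in homozygous, 43.8 and 71.3 TPM in heterozygous and 42.8 and 43.0 TPM in wild type libraries. Replicate 2 of both floxed genotypes was high. Their replicates 1, the libraries with the most Ttr, were near the wild type level, the heterozygous one just above it and the homozygous one just below. The log2 difference was 0.41 (SE 0.34, limma adjusted p = 0.53) in homozygous and 0.37 (SE 0.34, limma adjusted p = 0.62) in heterozygous tissue, and -0.07 in homozygous tissue without homozygous replicate 2. Without homozygous replicate 1 it was 0.90 there, and in heterozygous tissue it was 0.72 without heterozygous replicate 1 and 0.03 without heterozygous replicate 2. Mbp, a myelin protein gene, was at 17.5 and 76.2 TPM in homozygous, 15.3 and 25.2 TPM in heterozygous and 13.9 and 35.7 TPM in wild type libraries, and its part in the Aqp4 values was not tested. Of 13 other endfoot genes 12 were tested and 0 called in either comparison, with medians of 0.34 in homozygous and 0.26 in heterozygous tissue. Mlc1, a membrane protein of astrocyte endfeet, stood at 142.6 and 158 TPM in homozygous, 159 and 119.7 TPM in heterozygous and 83.1 and 76.8 TPM in wild type libraries, with no overlap between wild type and the others.

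Agt (ENSMUSG00000031980.9, chromosome 8 from 124556534 to 124569706, minus strand, 5 exons) encodes angiotensinogen, the precursor of angiotensin, which astrocytes make in the brain. It stood at 13.9 and 19.5 TPM in homozygous, 11.04 and 9.57 TPM in heterozygous and 9.21 and 8.78 TPM in wild type libraries. Homozygous libraries stood above all others, and heterozygous ones just above wild type. Against wild type the log2 difference was 0.80 (SE 0.20, limma adjusted p = 0.126) in homozygous and 0.17 (SE 0.20, limma adjusted p = 0.69) in heterozygous tissue, 0.08 in heterozygous tissue without heterozygous replicate 1 and 0.27 without heterozygous replicate 2, and between both floxed genotypes 0.63 (SE 0.20, limma adjusted p = 0.9999). Of 12 other angiotensin genes only 6 passed the filter and 0 were called in either comparison with wild type. Ace, the converting enzyme, stood at 20.2 and 3.55 TPM in homozygous, 29.3 and 2.24 TPM in heterozygous and 2.58 and 1.89 TPM in wild type libraries, high in the same 2 libraries as Ttr.

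**Figure D3:**
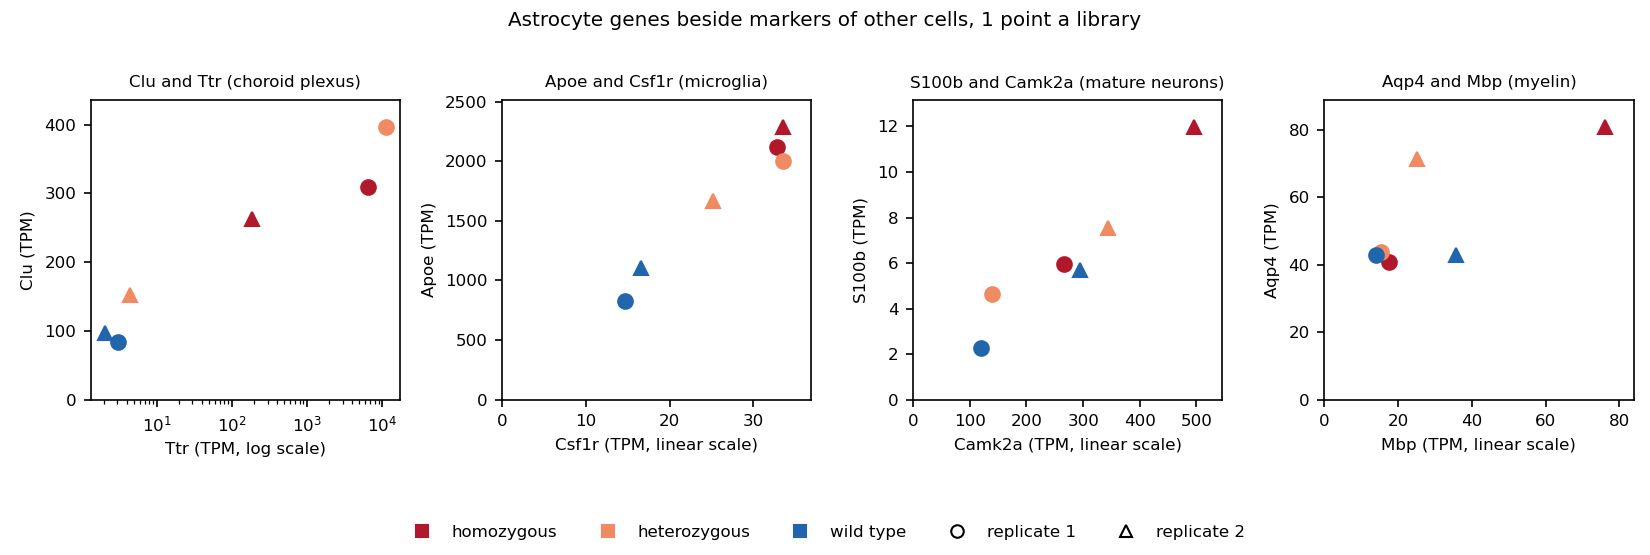
TPM of Clu, Apoe, S100b and Aqp4 (vertical, linear) against a marker of another cell type in the same library (horizontal; Ttr on a log scale); each point is 1 library, coloured by genotype. Clu is highest where Ttr is highest, at 396 TPM beside 11259 TPM, Apoe and Csf1r are both lowest in wild type, and S100b follows Camk2a within each genotype.

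Other genes of astrocytes were read as a list of 32, all tested. In homozygous tissue 29 of the 32 lay above wild type, with a median log2 difference of 0.39, and libraries did not overlap for 25 higher genes and 1 lower gene, where 23.6% of all genes were higher and 30.7% lower without overlap. In heterozygous tissue 27 lay above, with a median of 0.37 and no overlap for 23 higher genes and 1 lower gene, against 17.1% and 28.9% of all genes. None was called by limma in either comparison. An unadjusted limma p under 0.05 was found for 17 higher genes and 1 lower gene in homozygous and 13 higher genes and 1 lower gene in heterozygous tissue. Over all genes, 8.35% in homozygous and 6.42% in heterozygous tissue were higher with such a p. In either direction 2635 and 2040 of 14518 genes had one. Mt3, a brain metallothionein, stood at 708 and 618 TPM in homozygous, 726 and 537 TPM in heterozygous and 334 and 412 TPM in wild type libraries. Cst3, a secreted protease inhibitor, stood at 1376 and 1497 TPM in homozygous, 1517 and 1403 TPM in heterozygous and 1030.3 and 1070.2 TPM in wild type libraries. Fgfbp3, a carrier of fibroblast growth factors, was the lower gene, at 29.4 and 30.2 TPM in homozygous, 34.0 and 35.0 TPM in heterozygous and 44.1 and 43.3 TPM in wild type libraries. Aldh1l1, a folate enzyme used to mark astrocytes, stood at 27.1 and 40.7 TPM in homozygous, 37.04 and 42.1 TPM in heterozygous and 22.5 and 27.8 TPM in wild type libraries, where homozygous and wild type overlapped.

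**Figure D4:**
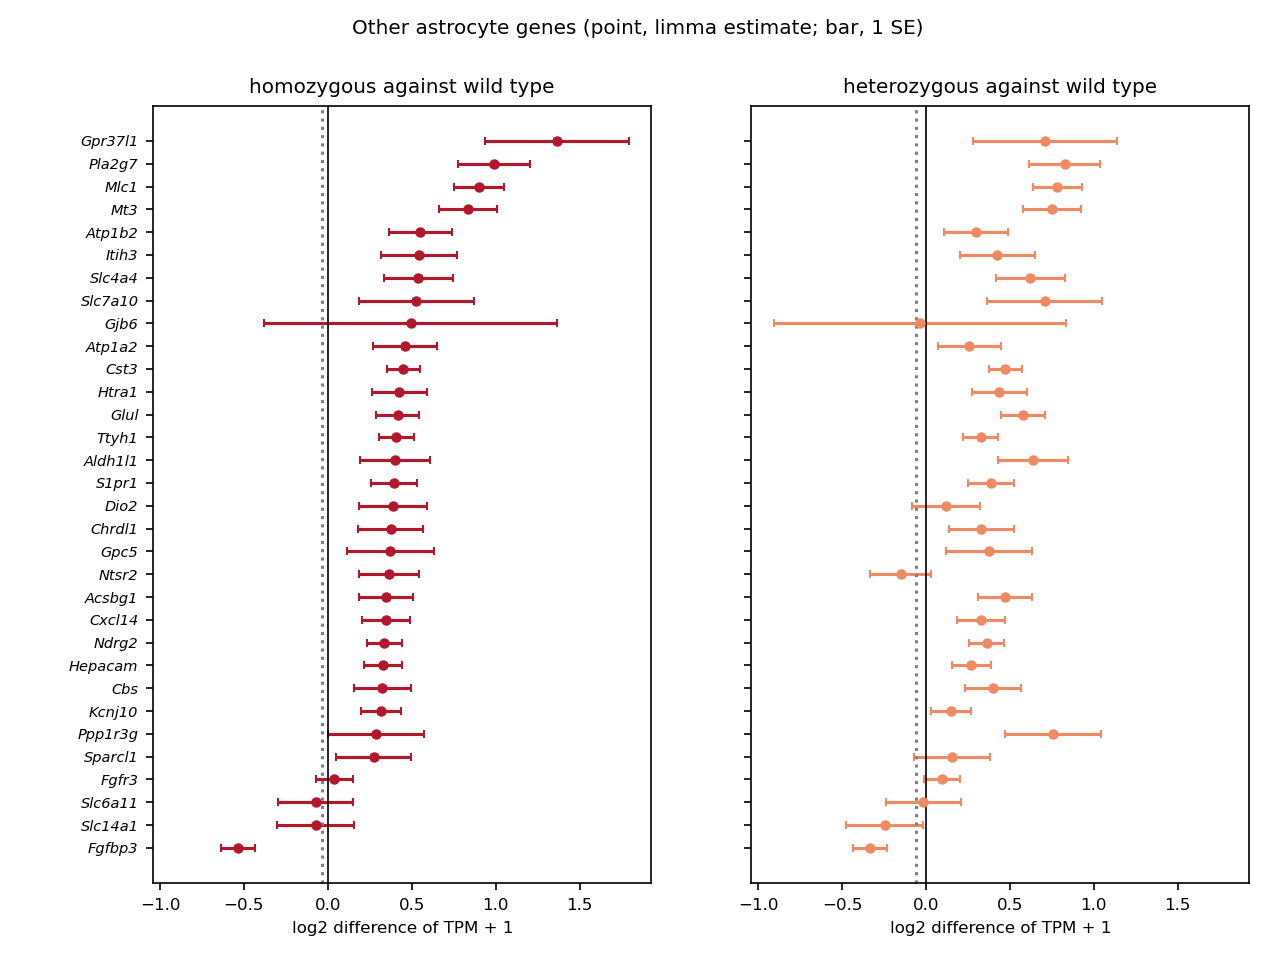
Log2 difference of TPM + 1 from wild type for 32 other astrocyte genes in homozygous (left) and heterozygous (right) tissue, as limma estimates with bars of 1 SE; the dotted line is the median of all genes tested. Most points lie between 0.2 and 1.0, Fgfbp3 lies lowest at -0.54 in homozygous tissue, and 0 of the 32 were called.

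Reactive glia and glial fate genes were read in the same way. Of 16 genes of reactive glia 13 were tested and 0 called in either comparison with wild type, with medians of 0.32 in homozygous and 0.40 in heterozygous tissue. Lgals3, a galectin of activated glia, was 3.44 times wild type in homozygous and 3.95 times in heterozygous tissue, Cp, a copper-carrying ferroxidase, 2.68 and 2.49 times, and Mt1, a metallothionein, 2.28 and 2.08 times. These 3 were higher and S100a10 lower with an unadjusted limma p under 0.05 in homozygous tissue. Lcn2, Steap4 and C3, induced in reactive astrocytes, were below the filter and not tested, with at most 0.63 TPM in any library. They were higher in all 4 floxed libraries than in wild type, but at such levels the order was not read as a difference. Of 22 glial fate regulators 21 were tested and 0 called in either comparison with wild type, with medians of -0.16 in homozygous and -0.20 in heterozygous tissue. In homozygous tissue 9 of the 21 lay above wild type and 12 below, where 44.8% of all genes lay above. An unadjusted limma p under 0.05 was found for 3 higher and 4 lower genes. Over all genes 8.35% were higher with such a p, and 2635 of 14518 had one in either direction. The higher ones were Bmp4, a secreted signal (5.50 times wild type), Hes1, a Notch target (1.51 times), and Id4, an inhibitor of bHLH factors (1.56 times). The lower ones were Zbtb20, a factor of hippocampal development, and the NFI factors, which promote astrocyte genes. Zbtb20 stood at 90.2 and 86.8 TPM in homozygous, 95.95 and 100.6 TPM in heterozygous and 161 and 136 TPM in wild type libraries, lower in all 4 floxed libraries. Nfib stood at 124 and 138.5 TPM in homozygous, 141 and 162 TPM in heterozygous and 287 and 222 TPM in wild type libraries. Nfix stood at 541 and 583.5 TPM in homozygous, 616 and 578 TPM in heterozygous and 1045 and 779 TPM in wild type libraries. Nfia stood at 42.6 and 40.8 TPM in homozygous, 48.2 and 40.8 TPM in heterozygous and 67.7 and 54.6 TPM in wild type libraries. None of these 4 passed across all genes, with limma adjusted p from 0.062 to 0.30.

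Lists of neighbouring cell types give the setting of these values. Radial glia genes went both ways, with 10 of 20 above and 10 below wild type in each comparison and medians of 0.02 in homozygous and 0.01 in heterozygous tissue. Oligodendrocyte precursor genes lay higher, with medians of 0.49 in homozygous and 0.35 in heterozygous tissue and all 12 above wild type in each comparison. Myelin genes had medians of 0.55 and -0.01 over the 11 tested, with a summed level of 217 TPM in homozygous replicate 2 beside 61.8 to 91.6 TPM in the other 5 libraries. Immature neuron genes lay lower, with medians of -0.51 and -0.34 and 17 of 18 below wild type in each. Mature neuron genes had medians of 0.27 and -0.01 over 18 genes, and proliferation genes -0.58 and -0.32 over 18. Endothelial genes stood at -0.01 in both, mural and meningeal genes at 0.11 in both (with -0.62 and 1.32 in the 2 homozygous libraries), erythroid genes at 0.20 and -0.01 over 5 genes, and dentate neuroepithelium genes at -0.24 and -0.29 over 18. None of the genes in the lists of this paragraph was called in either comparison with wild type, and their part in the astrocyte values was not tested.

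**Figure D5:**
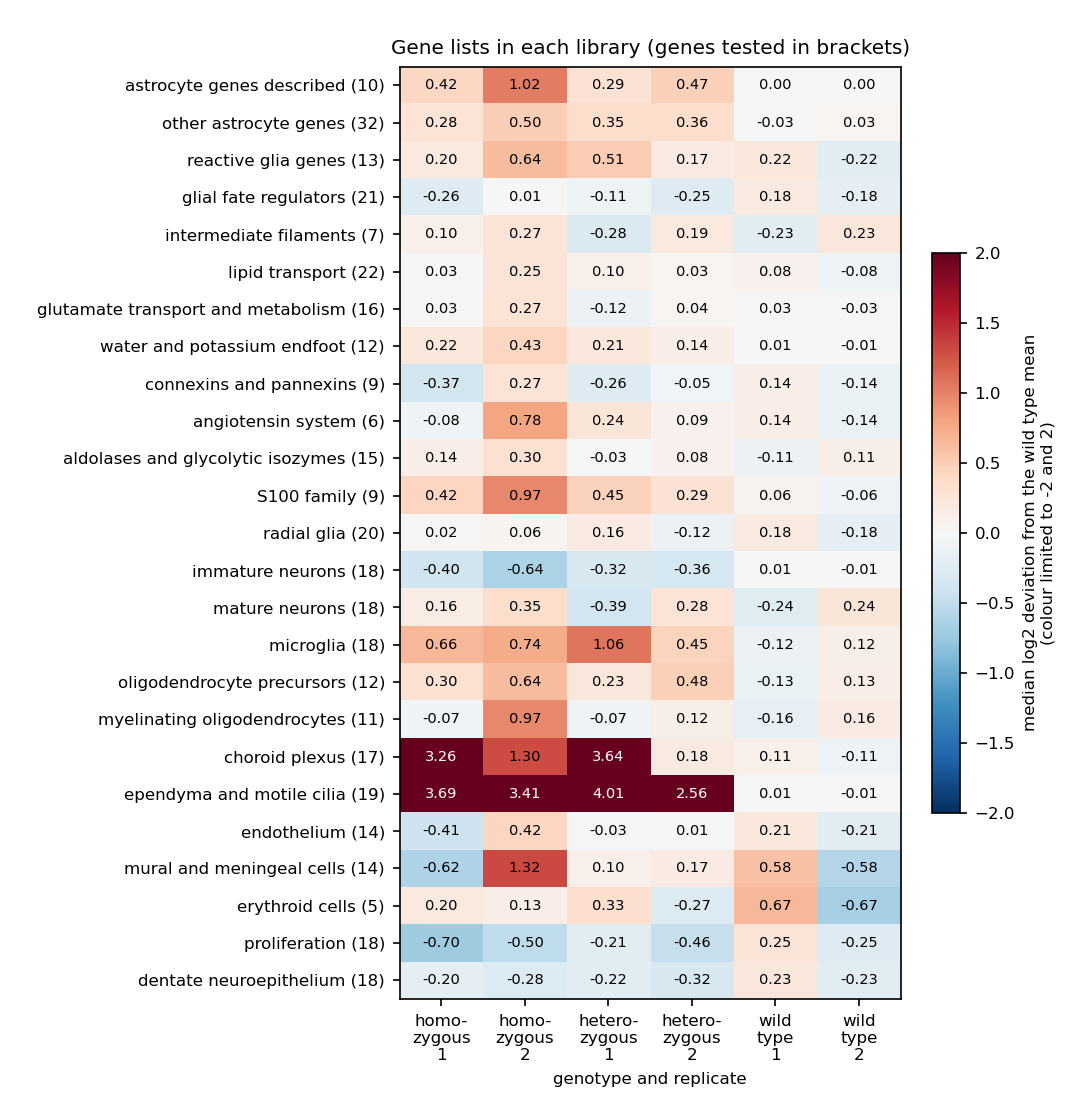
Median log2 deviation of each gene list from the wild type mean (rows, with the number of genes tested in brackets) in each library (columns); red is above and blue below wild type. The 10 genes described stand at 0.42 and 1.02 in homozygous and 0.29 and 0.47 in heterozygous libraries, the ependymal list stands highest at 2.56 to 4.01 in the 4 floxed libraries, and choroid plexus is at 0.18 in heterozygous replicate 2.

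The 10 genes were compared with one another across the 6 libraries. Pearson's r of log2(TPM + 1) was above 0 for all 45 pairs, with a median of 0.73, a highest value of 0.97 for Slc1a3 and Gja1 and a lowest of 0.12 for Clu and Aqp4. These values are descriptions over 6 libraries of 3 genotypes, which share the difference between genotypes. Among 11440 other genes averaging 5 TPM or more, those most like Clu were Dnaic2, a dynein gene of motile cilia (r = 0.998), and C1qc, a complement gene of microglia (r = 0.997). Most like Apoe was Coasy, an enzyme of coenzyme A synthesis (r = 0.999). Most like Slc1a2 were Kifc2 and Fmnl1 (r = 0.994 for each). S100b was like Prdx3 and Serpina3n (r = 0.994 for each), and Gfap like Tmem254c (r = 0.992) and Zcchc24 (r = 0.986). First for Slc1a3 was Mpp1 (r = 0.999), for Gja1 Pdlim5 (0.995), for Agt C77080 (0.993), for Aldoc Rps21 (0.991) and for Aqp4 Cops7a (0.984). These are the top of 11440 genes over only 6 libraries, and each of the 10 genes had such a high r. The values follow from that search and do not show which cells hold a transcript.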

How the data were processed

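Poly(A) RNA was sequenced from 6 libraries, 2 per genotype. The deposited values are TPM, made by the authors and scaled to 1000000 per library. TopHat 2.0.11, Cufflinks 2.2.1 and the mm10 build are named per the labels (design text). The submitters' processing notes name FastQC and RSEM with mm10 and GRCm38. The sources used here do not say which of these made the table, or whether strand was used. TPM keeps no depth, so no counting interval was computed.

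Values were used as log2(TPM + 1), which understates the change of low genes. The 14518 genes averaging 1 TPM or more entered limma 3.58.1 in R 4.3.3 with all 6 libraries, genotype as the factor (3 residual degrees of freedom), an intensity trend and Benjamini-Hochberg adjustment over all genes at 0.05. The method was tested on simulated data with independent errors and the spread shuffled between genes. That test does not cover variation shared by the genes of a library, or a spread that depends on level. The smallest two-sided p of an exact permutation with 2 libraries a genotype is 0.33. Errors are limma's SE.

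The replicate numbers are shared between genotypes, and whether they pair the libraries is not given in the sources used here. The main fit did not treat them as pairs. Gene positions came from GENCODE M21 on GRCm38, and promoters from RefSeq on GRCm38.p6.

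The members, the 24 other gene lists and the tests were chosen with earlier results of these data known. Named are the 10 genes, genes of each list with the smallest unadjusted p or the highest level, and the genes most like a member by Pearson's r. Vim, Abca1, Bmp4, Id4, Camk2a, Aldh1l1, Dip2a, Slc1a7, Wnt3a, Lcn2, Steap4, C3, Hbb-y, Hba-x and Hbb-bh1 fall outside this rule and were chosen after their values were seen. Alternatives were the pseudocount, the filter, rescaling by a trimmed mean of log ratios (TMM), eBayes without a trend, the libraries in the fit and a replicate block. A comparison of protein sequences was not made here.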

Additional observations from a re-analysis of the deposited data

How the results depend on the processing

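For each comparison, 15 alternatives were run; the Ttr-rich libraries are heterozygous replicate 1 and homozygous replicate 1. Of 450 values of single genes, 421 kept their direction and side of the threshold, 21 passed only under the alternative and 8 changed sign. For homozygous against wild type, 6 genes were called, and a pseudocount of 0.1 gave 149, one of 0.5 gave 75 and no filter gave 3, with 393 from the libraries of the 2 genotypes only, 283 with the replicate block and 491 without both Ttr-rich libraries. Leaving out single libraries gave 3 to 397. The count of 0 of the 10 astrocyte genes called was 2 with a pseudocount of 0.1 (Apoe and Gja1), 1 with 0.5, 3 with 2 genotypes only, 2 with the replicate block (Apoe and Gja1), 5 without both Ttr-rich libraries and 0 to 3 without single libraries. Their median of 0.72 was 1.02 without both Ttr-rich libraries and 0.42 to 1.02 without single libraries. For heterozygous against wild type, 5 genes were called, and a pseudocount of 0.1 gave 49 and no filter 1, with 9 from the replicate block, 152 without both Ttr-rich libraries and 3 to 397 without single libraries. The count of 0 astrocyte genes was 0 to 2 without single libraries, and their median 0.29 to 0.47. For homozygous against heterozygous, the count of 2 genes was 1 with no filter, 1 with eBayes without a trend, 12 without both Ttr-rich libraries and 1 to 5 without single libraries. The median of 0.25 was 0.46 without both Ttr-rich libraries and 0.05 to 0.40 without single libraries. The cause of these shifts was not tested.

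Direction changed for 5 genes. Aqp4 in homozygous against wild type ran from -0.07022 without homozygous replicate 2 to 0.8993 without homozygous replicate 1. In homozygous against heterozygous, Aqp4 was -0.31 without heterozygous replicate 1 and ran from -0.45 without homozygous replicate 2 to 0.5243 without homozygous replicate 1. Slc1a2 in heterozygous against wild type was -0.04 without wild type replicate 1 and ran from -0.13 without heterozygous replicate 2 to 0.1673 without heterozygous replicate 1. In homozygous against heterozygous, Clu ran from -0.47 without heterozygous replicate 2 to 0.8973 without heterozygous replicate 1, and Slc1a3 from -0.04055 without homozygous replicate 2 to 0.07374 without homozygous replicate 1. Aldoc there was 0.02022 without both Ttr-rich libraries. A lone library is assumed to vary like the other genotypes. Deviations of libraries with the same replicate number correlated at 0.34 for homozygous and heterozygous, -0.09 for homozygous and wild type and 0.21 for heterozygous and wild type libraries. These values do not settle whether the numbers pair the libraries, and the main fit did not treat them as pairs. With the replicate block Apoe and Gja1 were called in homozygous against wild type, where the main fit called none of the 10 genes. With 2 libraries per genotype and no depth, small differences such as those of Slc1a2 and Slc1a3 did not pass, which does not show that they are absent.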

Other observations

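Hba-a1, an adult globin, stood at 270.5 and 285 TPM in homozygous, 235 and 215 TPM in heterozygous and 343 and 198 TPM in wild type libraries, with overlapping genotypes. Olig1, a factor of oligodendrocyte precursors, stood at 161 and 165 TPM in homozygous, 165 and 166 TPM in heterozygous and 75.8 and 119 TPM in wild type libraries, higher in all 4 floxed libraries, with no call (limma adjusted p = 0.131 in homozygous and 0.24 in heterozygous tissue).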
